A study of Mus musculus with 20 samples.

Results

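The genes examined here handle citrate: Slc25a1, Acly, Cs, Aco1, Idh1, Idh2, Idh3a, Idh3b and Idh3g. They were taken by name, as all probe sets whose single gene symbol in the platform annotation was 1 of these 9. This gave 12 probe sets of the 12422 on the array that are not controls. RNA from whole mouse prostate was measured on Affymetrix MG-U74A arrays, 20 in all, with 5 mice in each of 4 groups. The mice were C57/B6 animals, 10 to 12 weeks old, and the groups followed removal of the testes and its reversal with androgen. The testosterone-treated castrates had been castrated for 14 days and then carried a 15 mg testosterone pellet for 3 days. The 14-day castrates and the 3-day castrates were taken 14 and 3 days after surgery with no hormone. The sham-treated mice, coded N3, kept their testes, and no time after sham treatment was stated in words. The sample labels named no transgene or deletion. The tissue is whole prostate, so each array averages epithelium, stroma, immune cells and anything dissected with the gland. A lower signal can reflect fewer cells of a type or less RNA per cell, and bulk samples cannot separate the 2.

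Citrate is made in mitochondria by citrate synthase (Cs) from oxaloacetate and acetyl-CoA. It is then either converted to isocitrate and oxidised by isocitrate dehydrogenases, or carried out of the mitochondrion by the citrate carrier Slc25a1. In the cytosol ATP citrate lyase (Acly) splits it back to acetyl-CoA for fatty acid and sterol synthesis, and cytosolic aconitase (Aco1) converts it to isocitrate. The prostate is known as a gland that accumulates and secretes citrate under androgen control. The isocitrate dehydrogenases differ: Idh1 works in the cytosol and peroxisomes and makes NADPH, Idh2 does the same in mitochondria, and Idh3 is the NAD-dependent enzyme of the citrate cycle. In Idh3, Idh3a is the catalytic subunit and Idh3b and Idh3g are its partner subunits.

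The upstream sequences of 4 members are shown because the results below turn on how differently Idh1, Idh2, Acly and Slc25a1 behaved under the same withdrawal and return of androgen. Each line gives the 250 bases before an annotated RefSeq start (GRCm38.p6), read 5′ to 3′ on the gene's strand, with motif matches in capitals. The motifs were the androgen response element, which is AGAACA followed by TGTTCT after a gap of 3 free bases, its single arm TGTTCT, the CCAAT box, the GC box GGGCGG and the sterol response element TCACNCCAC, each searched on both strands. The single arm is part of the full element. Idh1 has 2 annotated starts, at chr1:65186480-65186729 and chr1:65179143-65179392, both on the minus strand. The windows of Idh2 (chr7:80115351-80115600), Acly (chr11:100528001-100528250) and Slc25a1 (chr16:17928220-17928469) are also on the minus strand.
Idh1, chr1:65186480-65186729: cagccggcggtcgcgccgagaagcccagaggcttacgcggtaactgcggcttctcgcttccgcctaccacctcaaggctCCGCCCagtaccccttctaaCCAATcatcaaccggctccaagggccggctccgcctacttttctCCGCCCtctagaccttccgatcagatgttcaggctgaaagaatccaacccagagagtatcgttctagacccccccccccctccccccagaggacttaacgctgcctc
Idh1, chr1:65179143-65179392: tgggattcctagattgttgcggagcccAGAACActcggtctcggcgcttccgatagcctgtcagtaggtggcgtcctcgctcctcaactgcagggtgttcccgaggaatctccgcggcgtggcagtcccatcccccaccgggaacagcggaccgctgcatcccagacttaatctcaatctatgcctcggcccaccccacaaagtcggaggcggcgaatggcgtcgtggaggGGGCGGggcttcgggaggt
Idh2: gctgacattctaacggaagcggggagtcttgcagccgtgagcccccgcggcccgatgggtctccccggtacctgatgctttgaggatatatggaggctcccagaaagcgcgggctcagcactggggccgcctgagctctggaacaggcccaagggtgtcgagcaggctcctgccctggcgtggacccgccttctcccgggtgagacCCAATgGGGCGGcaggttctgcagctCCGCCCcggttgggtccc
Acly: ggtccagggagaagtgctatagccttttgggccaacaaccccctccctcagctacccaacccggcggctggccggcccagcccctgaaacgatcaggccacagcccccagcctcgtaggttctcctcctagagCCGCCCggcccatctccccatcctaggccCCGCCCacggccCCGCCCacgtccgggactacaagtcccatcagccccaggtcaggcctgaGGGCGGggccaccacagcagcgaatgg
Slc25a1: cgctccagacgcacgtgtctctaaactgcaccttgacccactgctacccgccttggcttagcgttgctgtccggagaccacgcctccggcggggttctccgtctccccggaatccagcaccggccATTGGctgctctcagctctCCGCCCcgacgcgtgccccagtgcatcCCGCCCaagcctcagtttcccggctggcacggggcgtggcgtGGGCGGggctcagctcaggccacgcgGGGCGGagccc

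RefSeq windows were found for 8 of the 9 members, with Idh3a unmatched. The full androgen response element occurred in none of the 9 member windows, and in 3 of 32851 windows of the same length over all genes. The single arm occurred in 2 member windows, once each: the Idh1 window at chr1:65179143-65179392, as AGAACA on the printed strand, and the Aco1 window. It was present in 16.1% of all windows. GC boxes were present in 6 genes' windows, 4 each for Acly and Slc25a1, against 32.7% of all windows with at least 1. Among the printed windows the CCAAT box was found once each in Idh2, in Slc25a1 and in 1 of the Idh1 windows, against 33.8% of all windows, and the sterol response element was in no member window, against 1.05%. These matches describe letters in short windows and say nothing of factor binding.

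Signals were MAS5 values on a linear scale, and changes are given on the log2(signal + 12.7) scale with the standard error (SE) of the limma fit over all 20 arrays. Adjusted p-values are two-sided and use the Benjamini-Hochberg method over 6913 tested probe sets, with a threshold of 0.05. A probe set was tested if it exceeded 190.8, the median of the values, on at least 5 arrays. Of the 12 member probe sets 8 were tested, covering 7 genes, and each exceeded that level on at least 18 of the 20 arrays. Aco1 (20.3 to 111.4 over all arrays) and Idh3b (6.5 to 46.6) never reached it, and neither did the other probe sets of Idh3a (0.2 to 9.0) and Idh3g (11.1 to 88.3). For Aco1 and Idh3b the array therefore gave no usable level. Levels are compared only within a probe set, since probes differ in brightness.

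Prostate markers were present: of 12 secretory and luminal genes on the array, every one exceeded the filter on some array, and Pbsn (probasin) averaged 10013 ± 1268 in testosterone-treated castrates, 4903 ± 854 in 14-day castrates, 15179 ± 305 in 3-day castrates and 16904 ± 1569 in sham-treated mice (SD, n = 5 each). The basal keratins Krt5, Krt14 and Krt15 never exceeded it. Seminal vesicle secretion genes were also bright, with sums of 4 genes of 40468 to 52168 in testosterone-treated castrates, 3169 to 32149 in 14-day castrates, 41766 to 58538 in 3-day castrates and 49365 to 61970 in sham-treated mice. Skeletal muscle genes were bright on some arrays. On 4 arrays the log2 ratio of the 3′ to the 5′ Gapdh control probe sets was 1.82 to 4.50, against -0.53 to -0.08 on the other 16. These were 14-day castrate replicates 4 and 5 and testosterone-treated replicates 2 and 5. Running numbers in the array titles follow the groups, so a batch that follows them and the treatment cannot be told apart.

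**Figure D1:**
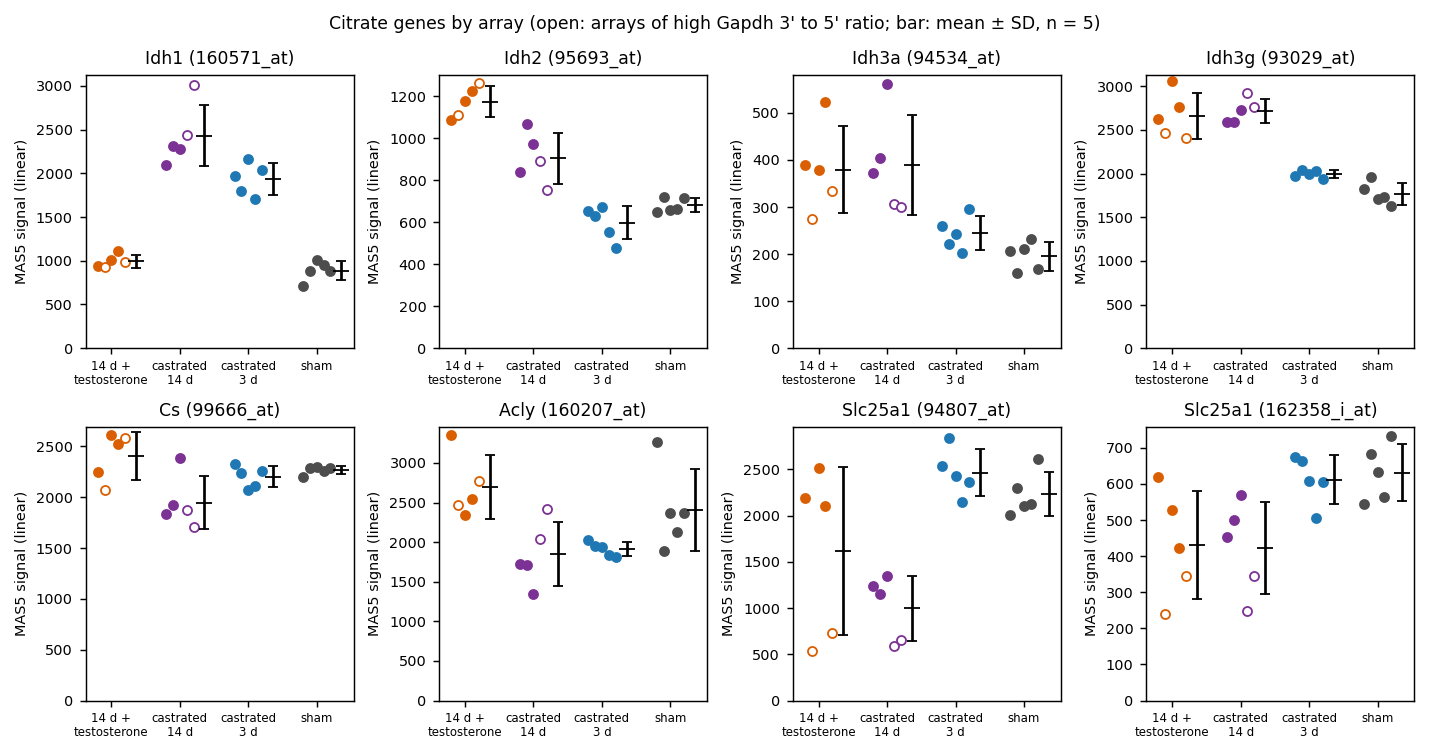
Signal of each tested member probe set (vertical axis, MAS5 signal) on every array, with groups from left to right as testosterone-treated castrates, 14-day castrates, 3-day castrates and sham-treated mice; each point is 1 mouse, open points are the 4 arrays of high Gapdh ratio, and bars are mean ± SD. Idh1 lies between 1707 and 3013 on all castrate arrays without hormone and between 709 and 1113 on all others.

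Idh1, the cytosolic NADPH-producing enzyme, had the largest change of the tested members from sham levels in both castrate groups, and was lower after testosterone than in 14-day castrates. Idh1 (160571_at) had signals of 938, 929, 1006, 1113 and 982 in testosterone-treated castrates, 2097, 2311, 2279, 2436 and 3013 in 14-day castrates, 1973, 1802, 2165, 1707 and 2036 in 3-day castrates, and 709, 885, 1009, 949 and 886 in sham-treated mice. Every castrate without hormone was above every mouse of the other 2 groups. The means were 993.5 ± 73.8 in testosterone-treated castrates, 2427 ± 349 in 14-day castrates, 1937 ± 183 in 3-day castrates and 888 ± 112 in sham-treated mice (SD, n = 5 each).

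Idh1 rose 2.17-fold in 3-day castrates against sham-treated mice (log2 change 1.12, SE 0.11, adjusted p = 2.2e-06, limma). It was the 1 gene called among the 7 citrate genes tested in that comparison, where 14.3% of all tested probe sets were called. Of these probe sets 9.84% were higher and 4.46% lower, and 13.3% had groups whose arrays did not overlap. The other 6 genes had log2 changes of -0.30 to 0.30 at 3 days, of which that of Idh3g (0.17) alone had an unadjusted p under 0.05 (0.036, adjusted p = 0.15). At 14 days Idh1 was 2.71-fold higher than in sham-treated mice (log2 change 1.44, SE 0.11, adjusted p = 3.2e-09). With testosterone it fell by 1.27 on the log2 scale relative to 14-day castrates (SE 0.11, adjusted p = 2.1e-08), a 2.41-fold difference. Testosterone-treated and sham-treated mice differed by a log2 change of 0.17 (95% interval -0.06 to 0.39, adjusted p = 0.20), and their signals overlapped. With each array centred on its median that change was 0.33 and passed (adjusted p = 0.039).

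The order of Idh1 levels was 14-day castrates, 3-day castrates, testosterone-treated castrates, sham-treated mice. The step between 14 and 3 days was small (log2 change 0.32, SE 0.11, adjusted p = 0.025), and the 2 groups overlapped. That call was lost without 3-day replicate 2 or 4 or 14-day replicate 5 (log2 change 0.24 to 0.29, adjusted p 0.0573 to 0.0781), when the 4 arrays with a high Gapdh ratio were dropped (0.21, adjusted p = 0.17), and with all arrays when each was centred on its median (0.29, adjusted p = 0.082). Macrophage genes moved partly with Idh1. Of 7 tested, 6 were higher at 3 days than in sham-treated mice and all 7 at 14 days, where 9.84% and 28.6% of all probe sets were higher. All 7 were lower after testosterone than at 14 days, where 26.6% of all probe sets were lower, and all 7 remained higher than in sham-treated mice. Their summed signal (9 genes, Fcer1g never above the filter) was 3934 to 5913 in testosterone-treated castrates, 9027 to 16481 in 14-day castrates, 4926 to 5904 in 3-day castrates and 1933 to 2481 in sham-treated mice. The sums of testosterone-treated and 3-day castrates overlapped.

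Fat cell genes gave another pattern. Of 8 tested adipocyte genes, 4 were higher and 2 lower at 14 days than in sham-treated mice (28.6% and 24.3% of all probe sets), and at 3 days limma called 0, with 3 at an unadjusted p under 0.05. The summed signal of 11 adipocyte genes (Cidec and Pparg never above the filter) was 2800 to 3729 in testosterone-treated castrates, 6450 to 11696 in 14-day castrates, 3759 to 6303 in 3-day castrates and 3526 to 6022 in sham-treated mice. At 3 days adipocyte sums overlapped those of sham-treated mice. Luminal sums (12 genes) were 48264 to 57911 in testosterone-treated castrates, 34710 to 39534 in 14-day castrates, 48282 to 59496 in 3-day castrates and 58463 to 71029 in sham-treated mice. Single luminal genes were divided. Of 11 tested, 2 were higher and 5 lower at 14 days than in sham-treated mice (28.6% and 24.3% of all probe sets). After testosterone 5 were higher and 4 lower than at 14 days (18.2% and 26.6% of all probe sets), with a median log2 change of -0.18. The sum of 8 endothelial genes was 2075 to 2735 in testosterone-treated castrates, 3401 to 3850 in 14-day castrates, 2197 to 2899 in 3-day castrates and 1645 to 2526 in sham-treated mice. The part of these cell types, and of the fibroblasts described below, in the Idh1 signal was not tested.

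Idh2, the mitochondrial counterpart of Idh1, behaved differently: it was highest after testosterone. Idh2 (95693_at) had signals of 1087, 1113, 1180, 1224 and 1264 in testosterone-treated castrates, 837, 1069, 975, 890 and 754 in 14-day castrates, 654, 632, 672, 555 and 479 in 3-day castrates, and 648, 722, 661, 661 and 717 in sham-treated mice. All 5 testosterone-treated castrates were above every other mouse, and all 5 14-day castrates were above the 3-day and sham-treated mice. Against sham-treated mice Idh2 was 1.71-fold higher after testosterone (log2 change 0.77, SE 0.10, adjusted p = 5.5e-06, limma) and 1.31-fold higher at 14 days (0.39, SE 0.10, adjusted p = 0.0032). At 3 days its change was -0.19 (95% interval -0.41 to 0.02, adjusted p = 0.23).

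Idh2 was 1.3-fold higher in testosterone-treated than in 14-day castrates (log2 change 0.38, SE 0.10, adjusted p = 0.0052). When the 4 arrays with a high Gapdh ratio were dropped, that value was 0.28 and missed the threshold (adjusted p = 0.091). The order of its levels was testosterone-treated castrates, 14-day castrates, sham-treated mice, 3-day castrates, of which the last pair overlapped.

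The unequal change of the 2 NADPH-producing enzymes was tested directly as the log2 ratio of Idh1 to Idh2 within each array. The ratio averaged -0.24 ± 0.08 in testosterone-treated castrates, 1.41 ± 0.34 in 14-day castrates, 1.68 ± 0.22 in 3-day castrates and 0.37 ± 0.19 in sham-treated mice (SD, n = 5 each). Its difference from sham was -0.61 after testosterone, 1.04 at 14 days and 1.31 at 3 days, and testosterone-treated less 14-day castrates gave -1.65. In these 4 comparisons the 2 groups' arrays did not overlap, which gives the smallest two-sided p that 5 against 5 arrays allow in an exact permutation test (p = 0.00794, adjusted p = 0.032 over 20 tests of 4 gene pairs). Between 14 and 3 days the ratio differed by -0.27 (exact permutation p = 0.18, adjusted p = 0.30), and by -0.41 without 14-day replicate 5 (adjusted p = 0.045). The zero of this ratio has no meaning across probe sets, so only its differences are read. On the 16 other arrays the 4 differences were -0.56, 0.84, 1.31 and -1.40, in the same order, and none passed after adjustment (adjusted p 0.0595 to 0.179). There testosterone-treated against 14-day castrates is 3 against 3 arrays, for which the test allows no p below 0.1. The 3-day castrates and sham-treated mice still gave 5 against 5 arrays.

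**Figure D2:**
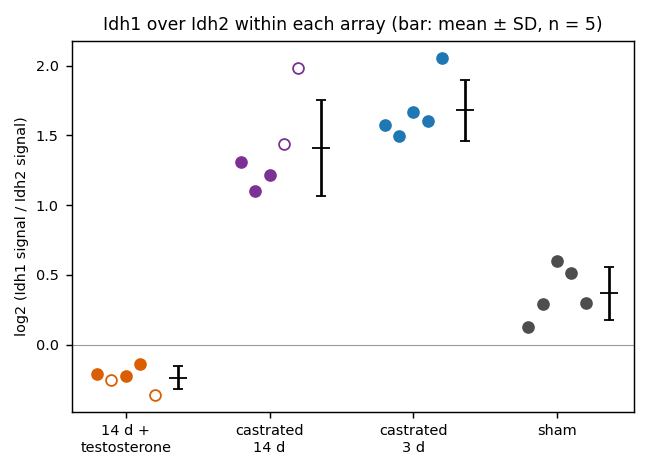
Log2 ratio of Idh1 to Idh2 signal within each array (vertical axis), by group, with points for mice and bars for mean and SD. The testosterone-treated castrates, at -0.24 ± 0.08, lie below the sham-treated mice, at 0.37 ± 0.19, and both lie below the castrates without hormone.

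Of the NAD-dependent enzyme of the citrate cycle, the subunits Idh3a and Idh3g were measured, and both were higher than in sham-treated mice after testosterone and at 14 days. The catalytic subunit Idh3a (94534_at) had signals of 389, 274, 378, 523 and 333 in testosterone-treated castrates, 373, 404, 561, 306 and 299 in 14-day castrates, 259, 221, 243, 203 and 297 in 3-day castrates, and 208, 159, 210.2, 233 and 169 in sham-treated mice. The first 2 groups lay wholly above the sham-treated mice, and the 3-day castrates overlapped them. Idh3a rose 1.86-fold in testosterone-treated castrates (log2 change 0.89, SE 0.17, adjusted p = 0.00029, limma) and 1.89-fold in 14-day castrates (0.92, SE 0.17, adjusted p = 0.000195), both against sham-treated mice. Its change at 3 days was 0.30 (95% interval -0.06 to 0.67, adjusted p = 0.27).

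Idh3g (93029_at), a partner subunit, had signals of 2625, 2460, 3063, 2764 and 2405 in testosterone-treated castrates, 2593, 2595, 2732, 2927 and 2757 in 14-day castrates, 1970, 2042, 2001, 2034 and 1938 in 3-day castrates, and 1826, 1960, 1710, 1733 and 1627 in sham-treated mice. Every mouse of the first 2 groups was above every mouse of the other 2. Against sham-treated mice Idh3g was 1.5-fold higher after testosterone (log2 change 0.58, SE 0.08, adjusted p = 5.7e-06) and 1.53-fold higher at 14 days (0.62, SE 0.08, adjusted p = 2.2e-06). Testosterone-treated and 14-day castrates differed by -0.027 for Idh3a (95% interval -0.39 to 0.33, adjusted p = 0.91) and by -0.035 for Idh3g (-0.20 to 0.13, adjusted p = 0.74). The sign of both values turned when each array was centred on its median. For both subunits the levels of testosterone-treated and 14-day castrates were not distinguishable, and those of 3-day castrates and sham-treated mice did not differ beyond the test's threshold.

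The log2 ratio of Idh3a to Idh3g differed between groups by 0.0076 to 0.31, and no comparison passed the exact permutation test (adjusted p 0.216 to 0.984). Without the 4 arrays of high Gapdh ratio it differed from sham by 0.55 at 14 days and 0.42 after testosterone, and by 0.42 between 14 and 3 days. These did not pass either (adjusted p 0.102 to 0.179). The ratio of Idh3a to Idh3b rests on a probe set near background and passed in no comparison with the 12.7 pseudocount and all arrays. With the 25th percentile as pseudocount it passed after testosterone against sham (0.86, adjusted p = 0.026), and without sham replicate 4 it passed there and at 3 days (1.20 and 0.79). Both subunits rose between 3 and 14 days, Idh3a by 0.62 (SE 0.17, adjusted p = 0.0083) and Idh3g by 0.44 (SE 0.08, adjusted p = 0.00021, limma), as did Idh2 by 0.59 (SE 0.10, adjusted p = 0.0002).

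Fibroblast genes were also above sham levels in these groups. The sum of 8 such genes was 18049 to 23999 in testosterone-treated castrates, 19168 to 26887 in 14-day castrates, 18012 to 22131 in 3-day castrates and 13304 to 14565 in sham-treated mice. Against sham-treated mice 6 of 8 were higher and 1 lower after testosterone, where 23.5% of all probe sets were higher and 29.5% lower. At 14 and at 3 days 6 were higher, where 28.6% and 9.84% of all probe sets were higher. Their part in the Idh2, Idh3a and Idh3g signals was not tested.

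Skeletal muscle genes varied widely among these arrays. The sum of 14 such genes (Myh2 never above the filter) was 12490 to 38065 in testosterone-treated castrates, 3887 to 34243 in 14-day castrates, 2626 to 6021 in 3-day castrates and 4719 to 22837 in sham-treated mice, and 8 of 13 tested were higher at 14 than at 3 days, where 20.2% of all probe sets were higher. With the log2 of this sum as a covariate, an alternative added after the data were seen, the 14-day change from sham was 0.38 for Idh2 (adjusted p = 0.005), 0.88 for Idh3a (adjusted p = 0.00027) and 0.61 for Idh3g (adjusted p = 4.9e-06). The step between 14 and 3 days was then 0.53 for Idh2 (adjusted p = 0.0061), 0.42 for Idh3g (adjusted p = 0.0047) and 0.41 for Idh3a, which no longer passed (adjusted p = 0.15).

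Slc25a1, the carrier that exports citrate from mitochondria, was lower at 14 days of castration. The brighter probe set (94807_at) had signals of 2193, 536, 2513, 2108 and 731 in testosterone-treated castrates, 1238, 1155, 1349, 592 and 651 in 14-day castrates, 2542, 2846, 2429, 2148 and 2368 in 3-day castrates, and 2011, 2297, 2105, 2125 and 2615 in sham-treated mice. All 14-day castrates were below all 3-day castrates and sham-treated mice. The testosterone-treated group split: replicates 2 and 5 were low and the other 3 lay within the range of sham-treated mice.

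Those low replicates, and the lowest pair of 14-day castrates, are the 4 arrays of high Gapdh ratio. Among testosterone-treated castrates they had 536 and 731, against 2108 to 2513 on the other 3 arrays, a mean log2 difference of -1.83. This was among the lowest 1.88% of all tested probe sets for that within-group difference. Among 14-day castrates they had 592 and 651, against 1155 to 1349, a log2 difference of -0.99, among the lowest 3.47%. The part of RNA quality in these signals was not tested, and results for Slc25a1 are therefore given with and without the 4 arrays, an alternative chosen after the data were seen.

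**Figure D3:**
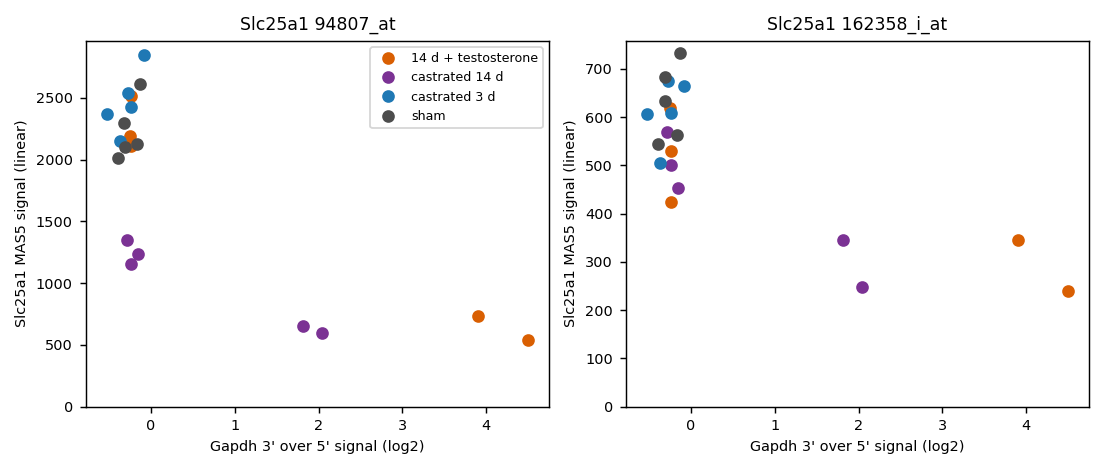
Signals of the 2 Slc25a1 probe sets (vertical axes, MAS5 signal) against the log2 ratio of 3′ to 5′ Gapdh control signal (horizontal axis) for the 20 arrays, coloured by group. The 4 arrays with ratios of 1.82 to 4.50 hold the 4 lowest signals of each probe set, 536 to 731 for 94807_at and 238 to 346 for 162358_i_at.

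With all arrays, Slc25a1 fell by 1.22 on the log2 scale at 14 days against sham-treated mice (SE 0.34, adjusted p = 0.0057, limma), a 2.34-fold difference. Without the 4 arrays it fell by 0.83 (adjusted p = 1.9e-05). At 3 days the change was 0.14 (95% interval -0.57 to 0.86, adjusted p = 0.84). Between 14 and 3 days it fell by 1.37 (SE 0.34, adjusted p = 0.0041), and by 0.97 without the 4 arrays.

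The response of Slc25a1 to testosterone depended on those arrays. Against 14-day castrates the log2 change was 0.52 with all arrays (SE 0.34, 95% interval -0.20 to 1.24, adjusted p = 0.23), 0.83 with array weights on all arrays (adjusted p = 0.0066), 0.86 without the 4 arrays (adjusted p = 6.5e-05) and 0.85 without testosterone-treated replicate 2 alone (adjusted p = 0.025). Against sham-treated mice it was -0.71 with all arrays (95% interval -1.42 to 0.01, adjusted p = 0.091) and 0.028 without the 4 (adjusted p = 0.86). Leaving out testosterone-treated replicate 1 or 3 instead gave -0.88 and -0.93, which passed (adjusted p = 0.045 and 0.031).

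The other Slc25a1 probe set (162358_i_at) was dimmer, with group means of 431 ± 150 in testosterone-treated castrates, 423 ± 128 in 14-day castrates, 612 ± 67.3 in 3-day castrates and 631 ± 79.4 in sham-treated mice. Its log2 change from sham was -0.60 after testosterone (adjusted p = 0.028) and -0.61 at 14 days (adjusted p = 0.025). Neither held without the 4 arrays (-0.27, adjusted p = 0.12, and -0.30, adjusted p = 0.077). The 14-day call was also lost without 14-day replicate 4 or 5 or sham replicate 2 or 5 (adjusted p 0.0506 to 0.0881), and the testosterone call without testosterone-treated replicate 2 or 5 or sham replicate 2 or 5 (adjusted p 0.055 to 0.0938). With all arrays the testosterone call was lost with median centring (-0.43, adjusted p = 0.060) and with array weights (-0.43, adjusted p = 0.074). Testosterone-treated and 14-day castrates differed by 0.011 (95% interval -0.45 to 0.47, adjusted p = 0.97). Without the 4 arrays this difference was 0.034 (adjusted p = 0.87, limma), against 0.86 for 94807_at, so the 2 probe sets differed there too.

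Acly, which splits exported citrate, was higher after testosterone than in 14-day castrates. Acly (160207_at) had signals of 3355, 2464, 2338, 2549 and 2767 in testosterone-treated castrates, 1724, 1717, 1347, 2036 and 2415 in 14-day castrates, 2030, 1947, 1933, 1837 and 1815 in 3-day castrates, and 3263, 1882, 2374, 2133 and 2365 in sham-treated mice. Testosterone-treated and 14-day castrates overlapped by 1 mouse. The rise was 1.47-fold (log2 change 0.56, SE 0.15, adjusted p = 0.0047, limma). Against sham-treated mice the changes were 0.18 after testosterone (95% interval -0.13 to 0.49, adjusted p = 0.32), -0.38 at 14 days (SE 0.15, adjusted p = 0.038) and -0.30 at 3 days (-0.61 to 0.01, adjusted p = 0.19).

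The 14-day fall of Acly was close to the threshold. It was lost without sham replicate 1, 3 or 5 or 14-day replicate 1, 2 or 3 (log2 change -0.38 to -0.26, adjusted p 0.0593 to 0.121). With all arrays it was also lost with median centring (adjusted p = 0.056), with no filter (0.056) and when only the 2 groups compared were fitted (0.096). On the 16 other arrays it was -0.57 (adjusted p = 0.0065). With the skeletal muscle covariate the 3-day change passed too (-0.54, adjusted p = 0.024), as did the change after testosterone (0.34, adjusted p = 0.041). Within arrays, the log2 ratio of Acly to Slc25a1 was 1.29 higher at 14 than at 3 days (exact permutation p = 0.00794, adjusted p = 0.032), and 0.71 higher without the 4 arrays (adjusted p = 0.0595). Without any 1 of the 3-day replicates the difference was 1.25 to 1.33 and missed the threshold (adjusted p = 0.0635). Leaving out a 3-day replicate thus changed the size of the difference little, while dropping the 4 arrays made it smaller. The ratio did not pass in the other 4 comparisons with the 12.7 pseudocount and all arrays. At 3 days against sham the difference of -0.45 (adjusted p = 0.053) passed with the 25th percentile as pseudocount (-0.44, adjusted p = 0.045), and without sham replicate 2 or 4 or 14-day replicate 5.

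Cs, which makes citrate, was higher after testosterone than in 14-day castrates, by a small margin. Cs (99666_at) had signals of 2252, 2068, 2612, 2525 and 2580.5 in testosterone-treated castrates, 1838, 1924, 2390.5, 1872 and 1704 in 14-day castrates, 2330.5, 2234, 2074, 2114 and 2261 in 3-day castrates, and 2194, 2289, 2299, 2262 and 2289 in sham-treated mice. The 14-day castrates were the lowest group, with replicate 3 above all sham-treated mice. Cs was 1.24-fold higher after testosterone than at 14 days (log2 change 0.31, SE 0.09, adjusted p = 0.0082, limma). At 14 days it was lower than in sham-treated mice by a log2 change of -0.23 (SE 0.09, adjusted p = 0.038). That call was lost without sham replicate 2, 3, 4 or 5 or 14-day replicate 1, 2, 4 or 5 (adjusted p 0.0566 to 0.105), and without the 4 arrays (-0.15, adjusted p = 0.18). With all arrays it was lost with quantile normalization (adjusted p = 0.060), with no filter (0.065) and when only the 2 groups compared were fitted (0.083). Between 14 and 3 days Cs did not pass (-0.19, adjusted p = 0.10), but did with array weights (-0.20, adjusted p = 0.013) and without 14-day replicate 3 (-0.26, adjusted p = 0.015). The change from sham was -0.042 at 3 days (95% interval -0.23 to 0.14) and 0.081 after testosterone (-0.11 to 0.27). The sum of 8 smooth muscle genes was 44088.5 to 49309 after testosterone, 20985 to 27094 in 14-day castrates, 24620 to 34075 in 3-day castrates and 31687 to 39368 in sham-treated mice, and its part in the Acly and Cs signals was not tested. Seminal vesicle secretion sums, given above, were lower in all 14-day castrates than in every other mouse, as were those of the luminal genes. Their part in the Slc25a1, Acly and Cs signals was not tested.

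**Figure D4:**
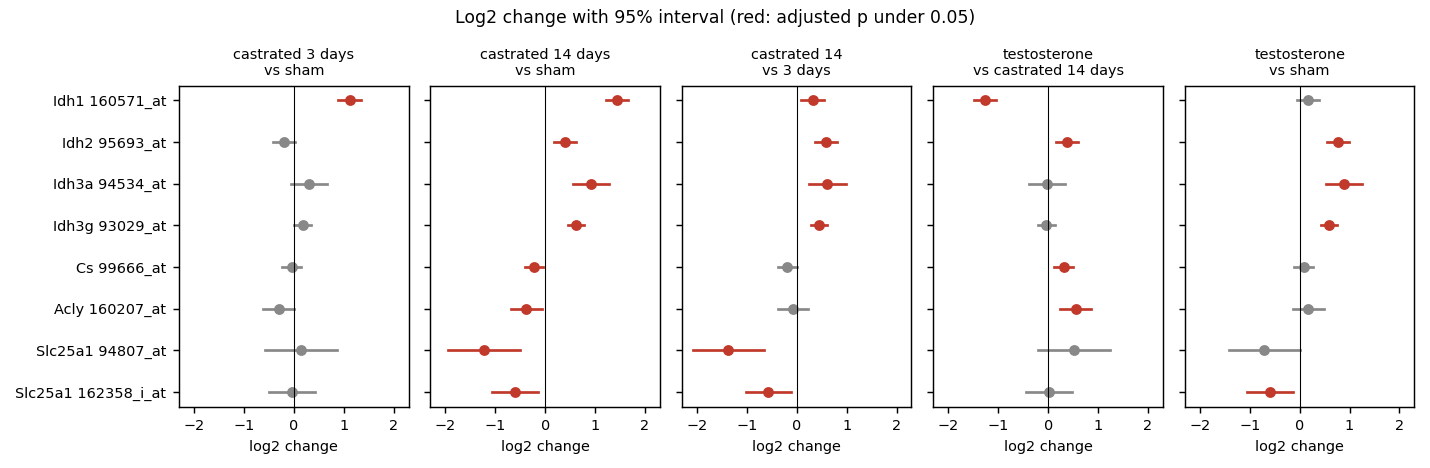
Log2 change of each tested member probe set with its 95% interval (axis, log2(signal + 12.7) scale) in the 5 comparisons. Idh1 is at 1.44 in 14-day castrates against sham-treated mice and at -1.27 in testosterone-treated against 14-day castrates, and Idh3a and Idh3g are at -0.027 and -0.035 in the testosterone comparison with 14-day castrates.

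Counted over the 7 genes tested, 4 rose (Idh1, Idh2, Idh3a and Idh3g) and 3 fell (Slc25a1, Acly and Cs) at 14 days against sham-treated mice, where 52.9% of all tested probe sets were called (28.6% higher and 24.3% lower). In 5 of the 7 the arrays of the groups did not overlap, against 35% of all probe sets. Their median log2 change was 0.39, against 0.014 for all probe sets. Between 14 and 3 days 4 rose and 1 fell, where 40.5% of all probe sets were called (20.2% higher and 20.4% lower), and 4 did not overlap, against 32.4%. In testosterone-treated against 14-day castrates 3 rose (Idh2, Acly and Cs) and 1 fell (Idh1), where 44.8% of all probe sets were called (18.2% higher and 26.6% lower), and 2 did not overlap, against 30.7%. The medians were 0.31 for the members and -0.10 for all probe sets. Against sham-treated mice 3 were higher after testosterone (Idh2, Idh3a and Idh3g) and none lower by their brightest probe set, where 53% of all probe sets were called (23.5% higher and 29.5% lower), and 3 did not overlap, against 31.4%. All these counts rest on 7 genes and are given as a description. The 14-day count of 7 was 5 when only the 2 groups compared were fitted and without sham replicate 3 or 5 or 14-day replicate 1 or 2, and 5 of 9 with no filter, with Idh1, Idh2, Idh3a and Idh3g called each time. The comparisons with 14-day castrates share those arrays, as the comparisons with sham share the sham arrays.

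Over the 20 arrays the log2 values of Idh3a and Idh3g correlated with Pearson's r = 0.80, Idh2 and Idh3g with 0.74, and Idh1 and Acly with -0.65. These are descriptions with no test, and the arrays share the 4 treatments and the 4 arrays of high Gapdh ratio. Among all tested genes, the 3 most like Idh1 were Marcks (r = 0.974), Sqor (0.959) and Cadps (0.958). The 3 most like Slc25a1 were Lypla2 (0.977), Capn1 (0.963) and Gatad2a (0.959). Those most like Idh2 were Atp5k (0.904), Ndufab1 (0.9002) and Tpi1 (0.8999), and for Idh3a they were Ndrg2 (0.929), Txnrd1 (0.877) and Fkbp1a (0.867). Idh3g was followed by 6430706D22Rik (0.944), Sfn (0.924) and Ctsz (0.917), Acly by Abce1 (0.885), Cndp2 (0.856) and Ostc (0.839), and Cs by Ptpn1 (0.835), Mvd (0.826) and Maged1 (0.826).

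Around the members, limma called 0 of 13 other enzymes of the citrate cycle at 3 days, with 2 at an unadjusted p under 0.05, where 14.3% of all probe sets were called. At 14 days 3 were higher than in sham-treated mice and 1 lower, where 52.9% of all probe sets were called. The succinate dehydrogenase subunits Sdhd and Sdha rose by log2 changes of 0.70 and 0.59, Suclg1, of succinyl-CoA ligase, rose by 0.50, and Ogdh, of the 2-oxoglutarate dehydrogenase complex, fell by 0.38. After testosterone, where 44.8% of all probe sets were called, 4 were higher than in 14-day castrates (among them Sdhb by 0.46, Mdh2, malate dehydrogenase, by 0.41 and Ogdh by 0.29) and 1, Sdha, fell by 0.45.

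Enzymes that feed the cycle gave 3 higher and 1 lower of 8 tested at 14 days against sham-treated mice, a share near the 52.9% of all probe sets called. Glud1, glutamate dehydrogenase, rose by 0.68, the pyruvate dehydrogenase complex subunits Dlat and Pdhb by 0.58 and 0.55, and Pdha1, another subunit, fell by 0.26. With testosterone Pdk3, a kinase that inhibits that complex, rose by 0.87 against 14-day castrates, Pdk4, another such kinase, fell by 1.03 and Glud1 fell by 0.42. Of 8 transporters of carboxylates, aspartate and zinc, 1 rose and 2 fell at 14 days, fewer than that share: the zinc transporters Slc30a4 (0.89) and Slc30a3 (-0.61), and the zinc importer Slc39a4 (-0.67). After testosterone Ank, a membrane protein linked to pyrophosphate and citrate release, rose by 0.67 against 14-day castrates, and Slc30a3 and Slc39a4 fell by 0.35 each.

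Genes that use cytosolic acetyl-CoA or control its use were higher at 14 days in 5 of 7 tested and lower in none, where 28.6% of all probe sets were higher and 24.3% lower. Thrsp, a lipogenic regulator, rose by 1.40, Hmgcs1, of sterol synthesis, by 0.70, the lipogenic transcription factor Srebf1 by 0.56 and the desaturase Scd1 by 0.50. After testosterone 4 rose against 14-day castrates (18.2% of all probe sets were higher and 26.6% lower), among them Hmgcs1 by 0.88, the elongase Elovl6 by 0.60 and Scd1 by 0.48, and Thrsp fell by 1.32. Thrsp had a mean signal of 114 ± 30.9 in testosterone-treated castrates, 303 ± 79.4 in 14-day castrates, 149 ± 48.4 in 3-day castrates and 108 ± 32.2 in sham-treated mice. It passed the filter of 190.8 through the 14-day castrates, where it is high, so its 14-day call is no support for the count of 5. The adipocyte sums given above were also highest in 14-day castrates. All changes in these lists passed limma with a Benjamini-Hochberg adjusted p of at most 0.046.

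**Figure D5:**
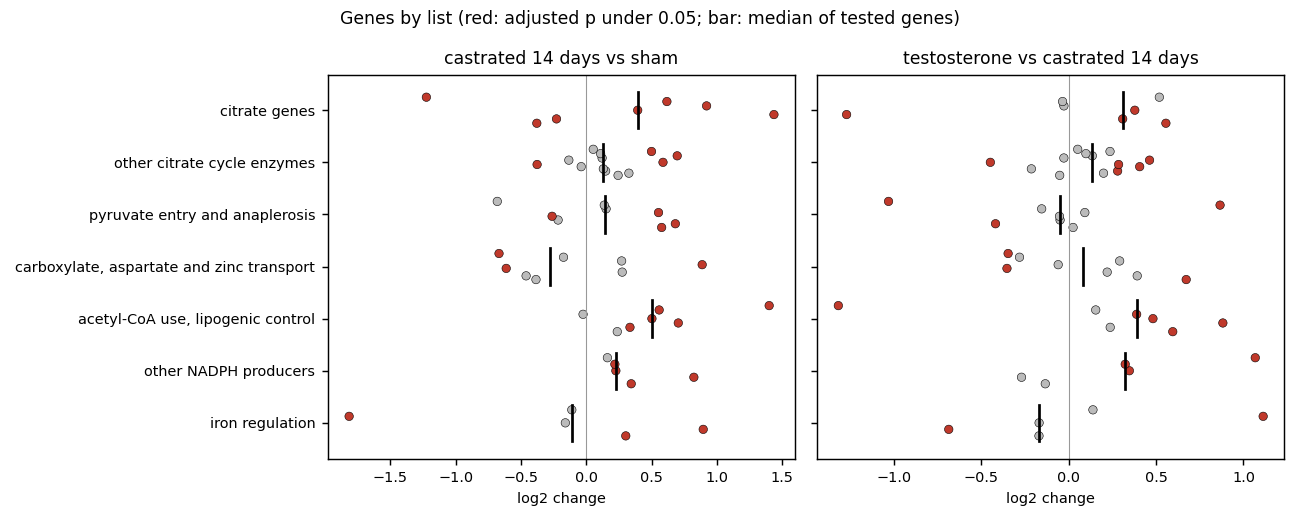
Log2 change of each tested gene (horizontal axis) in the citrate genes and 6 other gene lists, for 14-day castrates against sham-treated mice and testosterone-treated against 14-day castrates; red points passed the test and bars are list medians. Genes that use cytosolic acetyl-CoA have 5 called higher and 0 lower at 14 days, and 4 called higher and 1 lower after testosterone.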

How the data were processed

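Whole prostate RNA from 20 mice was hybridised to 1 array each. The deposited values are intensities, 1 MAS5 signal (version 5.0, per the submitters' processing notes) per probe set on a linear scale, with array means of 500.2 to 500.3 after trimming 2% at each end. A pseudocount of 12.7 (10th percentile) was added before log2, with no further normalization. Of 12488 probe sets 66 controls were left out, and 10833 had 1 symbol, 396 several and 1193 none. Probe sets above 190.8 (the median) on at least 5 of 20 arrays were tested, 6913 in all. Groups came from the sample labels. limma 3.58.1 in R 4.3.3 fitted all 4 groups with 5 comparisons, after being tested on simulated data, and Benjamini-Hochberg adjustment ran over all tested probe sets. A gene with several probe sets was counted by the brightest.

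Ratios between members were compared by exact permutation tests. Alternatives changed the pseudocount, normalization, filter, samples in the fit, array weights, variance prior, probe set rule and each array in turn. All probe sets of the members are reported. From each other list, up to 4 genes with the largest change among those called are named per comparison (14-day castrates against sham and testosterone against 14-day castrates), and for each member the 3 most correlated genes. The members and lists were chosen with earlier results of these data known. The series' design gives 5 mice per group, and the number of arrays limits the precision. No pair of arrays had more than 0.368% identical values.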

Additional observations from a re-analysis of the deposited data

Results flagged for a closer look

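The change from sham at 14 days differed from that at 3 days for 6 member probe sets, by the direct limma comparison of the 2 castrate groups. The difference, 14 days less 3 days on the log2 scale, was 0.32 for Idh1 (adjusted p = 0.025), 0.59 for Idh2 (adjusted p = 0.0002), 0.62 for Idh3a (adjusted p = 0.0083) and 0.44 for Idh3g (adjusted p = 0.00021). For the Slc25a1 probe sets it was -1.37 (94807_at, adjusted p = 0.0041) and -0.57 (162358_i_at, adjusted p = 0.046). The smaller Idh1 and 162358_i_at differences were lost when the 4 arrays with a high Gapdh ratio were dropped (0.21, adjusted p = 0.17, and -0.26, adjusted p = 0.15), and 162358_i_at also missed the threshold without any 1 of sham replicates 2, 3 and 4, 3-day replicates 1, 2, 3 and 5, 14-day replicates 1, 4 and 5 and testosterone-treated replicate 4 (adjusted p 0.0511 to 0.147), with no filter (0.073) and with the skeletal muscle covariate (0.080). With each array centred on its median the Idh1 difference was 0.29 (adjusted p = 0.082). That of Idh3a was lost with the skeletal muscle covariate (0.41, adjusted p = 0.15). In 32 groups of 5 arrays, over the 8 tested probe sets, no array stood apart by Dixon's criterion of 0.71. That criterion looks at a single extreme array. It cannot flag 2 arrays that are low together, as for Slc25a1 (94807_at) after testosterone.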

How the results depend on the processing

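The calls for Idh1, Idh2, Idh3a and Idh3g against sham at 14 days, for Idh1 against 14-day castrates after testosterone and for Slc25a1 (94807_at) at 14 days kept direction and side of the threshold under all 31 alternatives. Centring each array on its median moved the median change of all probe sets in the testosterone comparisons to 0.09 against 14-day castrates and 0.079 against sham (-0.10 and -0.087 otherwise), and called 5 of 7 genes rather than 3 against sham: Idh1 (0.33, adjusted p = 0.039) and Cs (0.25, adjusted p = 0.041) were added. It also gave 0.17 for Idh3a and 0.16 for Idh3g after testosterone against 14-day castrates. There quantile normalization gave 0.11 for Idh3a, and array weights 0.12 for Idh3a and 0.067 for Idh3g. A pseudocount of 1 turned Idh3a over Idh3b to -0.32 between 14 and 3 days. Without the 4 arrays of high Gapdh ratio, Idh3g after testosterone against 14-day castrates was 0.091, Idh3a over Idh3g there -0.14, Acly over Slc25a1 -0.086 and Slc25a1 (94807_at) against sham 0.028. Without those arrays 0 of 20 pair ratios passed, and 3 against 3 arrays allow no p below 0.1. The muscle covariate gave 2 genes called at 3 days, Slc25a1 (162358_i_at) 0.035 at 3 days and -0.023 after testosterone against 14-day castrates, Cs 0.021 at 3 days and Acly 0.22 between 14 and 3 days.

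Leaving out 1 array at a time gave 4 to 8 pair ratios past the threshold (8 without sham replicate 4). Values whose sign turned ranged over -0.093 to 0.022 (3 days) and -0.16 to 0.20 (testosterone against 14-day castrates) for Slc25a1 162358_i_at, -0.18 to 0.032 for Acly between 14 and 3 days, -0.15 to 0.11 for Idh3a and -0.086 to 0.00056 for Idh3g after testosterone against 14-day castrates, -0.15 to 0.28 for Idh3a over Idh3b between 14 and 3 days, and, after testosterone against 14-day castrates, -0.098 to 0.14 for Idh3a over Idh3g and -0.26 to 0.31 for Acly over Slc25a1. Their causes were not tested. No paired analysis was possible, because each array is a different mouse and the labels pair no mice across groups. The replicate numbers used here follow the order of the samples within each group. Dim signals limit Aco1 and Idh3b.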

Other observations

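Of 5 other genes listed as NADPH producers and tested, 4 were higher at 14 days than in sham-treated mice, where 28.6% of all probe sets were higher: Nnt, the mitochondrial transhydrogenase, by a log2 change of 0.82, Me1, cytosolic malic enzyme, by 0.34, and Pgd and Taldo1, of the pentose phosphate pathway, by 0.23 and 0.22. After testosterone 3 were higher than in 14-day castrates (18.2% of all probe sets), led by Tkt, transketolase, at 1.07, with Pgd at 0.35 and Taldo1 at 0.32. Taldo1 and Tkt act in the arm of that pathway that makes no NADPH itself. Idh1 fell in that same comparison. Tkt averaged 2542 ± 456 in testosterone-treated castrates, 1199 ± 162 in 14-day castrates, 1183 ± 132 in 3-day castrates and 1079 ± 207 in sham-treated mice.

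Genes of iron handling were looked at because Aco1 also acts as an iron regulatory protein. Slc11a2, an iron importer, averaged 1286 ± 119 in testosterone-treated castrates, 589 ± 63.7 in 14-day castrates, 1465 ± 120 in 3-day castrates and 2120 ± 374 in sham-treated mice. It fell by 1.82 at 14 days against sham-treated mice (adjusted p = 2.4e-10, limma) and rose by 1.11 after testosterone against 14-day castrates (adjusted p = 1.7e-07). Hfe, a regulator of iron uptake, moved the other way, by 0.90 and -0.69, and Fth1, ferritin heavy chain, rose by 0.30 at 14 days. Of 5 tested in all, 2 were higher and 1 lower at 14 days, and 1 higher and 1 lower after testosterone against 14-day castrates, where 52.9% and 44.8% of all probe sets were called.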
